A study of Mus musculus with 30 samples.

Results

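Imprinted genes are expressed mainly from the copy inherited from one parent. The genes described here are imprinted mouse genes outside the H19-Igf2 and Dlk1-Meg3 clusters. Of 48 such genes chosen by symbol, 46 were found among the 20563 genes of the table, and Ppp1r9a and Herc3 were not analysed here. By their usual imprint, 22 of the 46 are known as paternally expressed and 23 as maternally expressed, and Gnas makes transcripts of both kinds. The rule for members uses gene symbols and no measured value, but it was set with earlier results of these data known. Of the 46, 43 reached a normalised count of 10 in at least 2 libraries and were tested. Kcnk9, Kcnq1 and Rasgrf1 did not.

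Most imprinted genes lie in clusters governed by a stretch of DNA that is methylated in the egg or the sperm, and this methylation is kept through early development by ZFP57, TRIM28 and the maintenance methyltransferase. Some clusters also carry a long noncoding RNA, such as Kcnq1ot1 or Airn, that silences neighbours on the same chromosome. Polycomb repressive complex 2 (PRC2), which methylates lysine 27 of histone H3, takes part in that silencing in placenta. Many members regulate growth, placenta or brain development. The table gives one value per gene and does not separate the parental copies, so it measures total RNA and not imprinting.

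The study followed mouse embryonic stem cells from day 0, when they were grown with the cytokine LIF, to day 4 and day 8 of differentiation as embryoid bodies. The mutant lines were a Pali1 knockout (Pali1-/-) and a double knockout (Pali1-/-, Pali2-/-), set against the wild type line named Pali WT. The other mutant was a homozygous Aebp2 gene trap (Aebp2gt/gt), set against the wild type line named C129. PALI1 and PALI2, encoded at the loci of Lcor and Lcorl, and AEBP2 are partners of PRC2 in different forms of the complex, and the comparisons address what their loss does to expression. Each line had 2 libraries at each of 3 days, 30 in all, called biological duplicates by the labels, so p-values measure the spread between these cultures. Whether the lines are single clones is not stated in the labels, and effects of a genotype and of its line cannot be told apart. That C129 is the control of the gene trap is read from the order in which the design names the lines.

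The values are normalised counts per gene, with column totals of 15470082 to 18336791 and an estimated 13198293 to 28151934 reads per library, from the smallest step between values. Duplicates correlated at 0.948 to 0.961 over all tested genes and at 0.916 to 0.987 over the tested members (Pearson, log2 scale, across genes, which are not independent). Aebp2 had 17.1 to 66.4 normalised counts in the 6 gene trap libraries and 1312 to 2784 in the 6 C129 libraries. Lcor and Lcorl passed the test in neither Pali mutant, and their gene values do not show the deleted part. Some values of exactly 0 beside a high duplicate may be failed estimates. Peg3, an imprinted zinc finger gene, was such a case in 5 groups, for example with 179.7 and 0 normalised counts in Pali wild type at day 0. In Pali wild type, markers of extraembryonic endoderm summed to 319 and 13293 in the 2 libraries at day 8 and to 215 and 5044 at day 4, so replicate 2 stood apart. Results of the members that rest on 1 library are given without it below.

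Across the 30 libraries 10 members had a mean of at least 1000 normalised counts, 20 a mean between 100 and 1000, and 16 a mean under 100. A value above 0 was found in every library for 29. The steadiest were Nap1l4, a histone chaperone gene, Cd81, a tetraspanin gene, and Tssc4, whose highest library was 1.70, 1.72 and 1.93 times the lowest. Sgce, the epsilon-sarcoglycan gene, spanned 354-fold. Grb10, whose product restrains signalling by the insulin and IGF1 receptors, had between 77.2 and 10671 normalised counts, and its high and low libraries were those of different lines. The plot of all tested members by group shows these patterns.

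**Figure D1:**
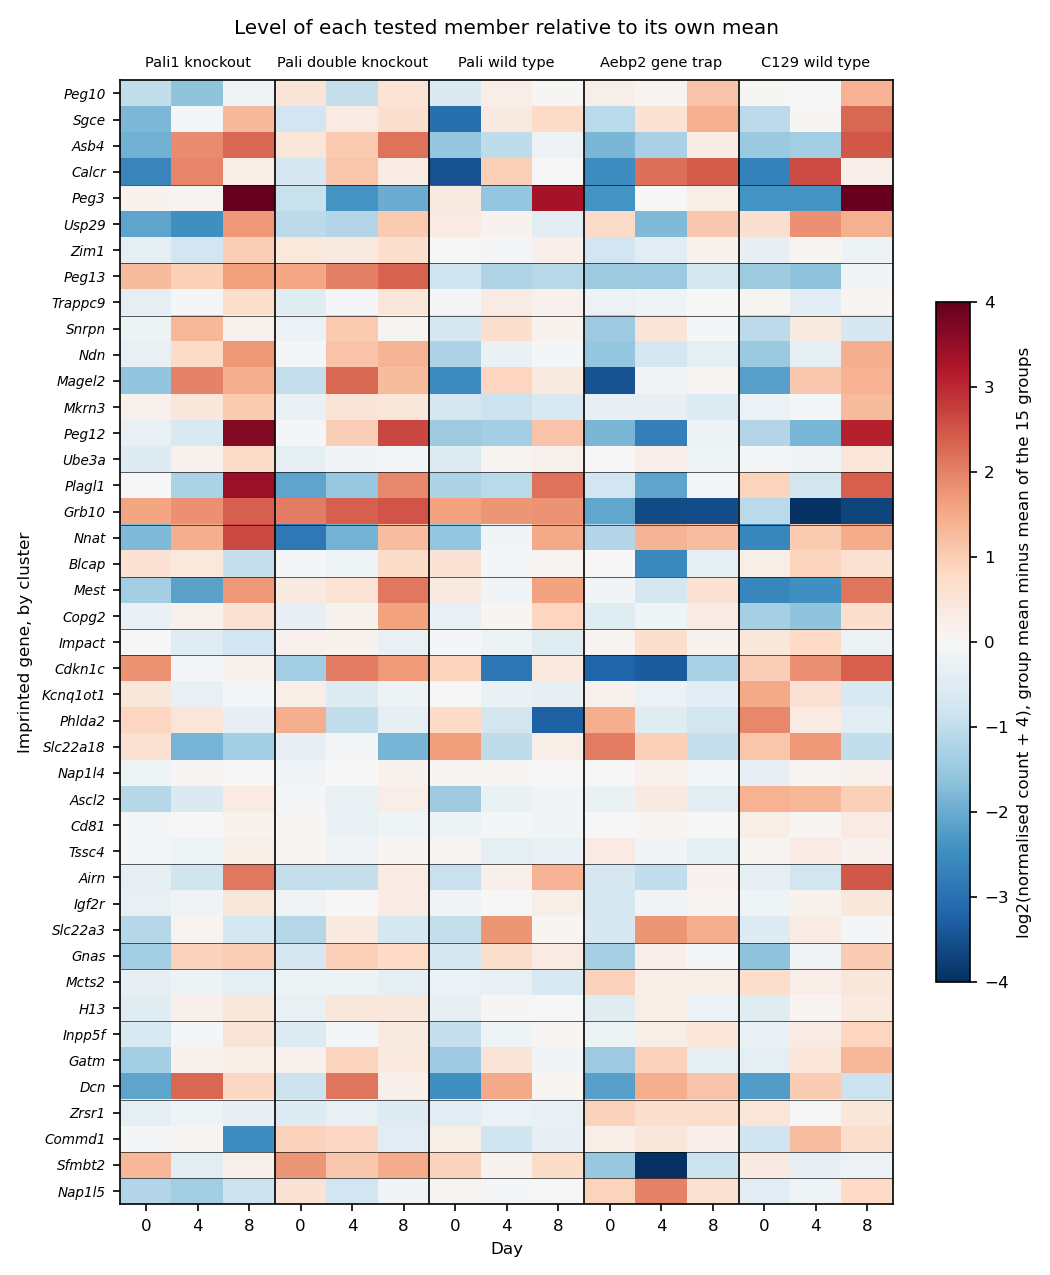
Each row is 1 of the 43 tested imprinted genes, grouped by cluster, and each column a line at day 0, 4 or 8; the colour is the mean of 2 libraries on the log2(normalised count + 4) scale minus the mean of the 15 groups. Peg13 is red in both Pali knockouts at all 3 days, and Grb10 is blue in the gene trap and C129 lines.

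Promoter windows are shown for 6 members whose values separate lines or mutants, because ZFP57 binds the methylated hexamer TGCCGC at imprinting control regions. The windows span 250 bases before to 50 after a RefSeq start (GRCm38.p6), run 5′ to 3′ on the gene's strand, and carry the hexamer, on either strand (GCGGCA on the opposite one), in capitals. Mkrn3 and Peg12 moved in the Pali mutants. Nnat moved in opposite directions in the 2 Pali mutants at day 4. Grb10 separated the C129 and gene trap lines from the Pali lines, and Mest and Plagl1 were called between the 2 wild type lines at some days (Mest at day 0 and 4, Plagl1 at day 0).
Mkrn3, chr7:62420104-62420403, minus strand: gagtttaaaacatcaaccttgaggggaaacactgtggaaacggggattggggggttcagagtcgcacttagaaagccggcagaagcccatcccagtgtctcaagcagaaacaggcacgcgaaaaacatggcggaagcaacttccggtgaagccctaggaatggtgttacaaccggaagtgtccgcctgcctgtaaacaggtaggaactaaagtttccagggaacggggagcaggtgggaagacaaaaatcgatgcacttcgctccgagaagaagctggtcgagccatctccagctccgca
Peg12, chr7:62464461-62464760, minus strand: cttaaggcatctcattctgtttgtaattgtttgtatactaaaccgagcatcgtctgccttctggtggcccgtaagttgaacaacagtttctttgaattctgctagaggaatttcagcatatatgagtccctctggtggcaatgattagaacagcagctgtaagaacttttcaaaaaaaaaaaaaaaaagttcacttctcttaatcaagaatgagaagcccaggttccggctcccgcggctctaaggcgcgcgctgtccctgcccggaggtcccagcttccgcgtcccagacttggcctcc
Nnat, chr2:157559828-157560127, plus strand: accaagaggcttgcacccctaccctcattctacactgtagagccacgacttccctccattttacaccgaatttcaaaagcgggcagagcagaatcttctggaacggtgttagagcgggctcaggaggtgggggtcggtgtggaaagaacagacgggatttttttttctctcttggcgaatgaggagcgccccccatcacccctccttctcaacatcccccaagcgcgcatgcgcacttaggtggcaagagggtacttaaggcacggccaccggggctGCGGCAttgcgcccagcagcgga
Mest, chr6:30737800-30738099, plus strand: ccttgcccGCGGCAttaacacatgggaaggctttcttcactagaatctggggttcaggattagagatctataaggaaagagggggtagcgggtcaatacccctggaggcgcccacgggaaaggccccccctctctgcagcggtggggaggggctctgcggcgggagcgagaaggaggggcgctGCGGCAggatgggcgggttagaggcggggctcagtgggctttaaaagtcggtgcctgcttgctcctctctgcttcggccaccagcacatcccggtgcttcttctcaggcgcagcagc
Plagl1, chr10:13090582-13090881, plus strand: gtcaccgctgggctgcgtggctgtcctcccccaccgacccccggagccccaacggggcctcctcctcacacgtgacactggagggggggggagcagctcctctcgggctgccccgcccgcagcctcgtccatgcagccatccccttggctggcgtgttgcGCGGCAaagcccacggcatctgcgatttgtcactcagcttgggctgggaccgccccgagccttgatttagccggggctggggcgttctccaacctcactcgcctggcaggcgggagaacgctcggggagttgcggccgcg
Grb10, chr11:12037371-12037670, minus strand: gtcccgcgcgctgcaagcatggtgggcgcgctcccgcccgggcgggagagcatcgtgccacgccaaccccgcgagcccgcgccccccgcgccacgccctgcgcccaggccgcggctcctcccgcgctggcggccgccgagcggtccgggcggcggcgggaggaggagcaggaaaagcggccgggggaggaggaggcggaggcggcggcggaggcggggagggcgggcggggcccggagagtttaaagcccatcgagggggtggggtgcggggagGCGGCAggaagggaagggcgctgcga
The hexamer occurred 2 times in the Mest window, 1 time in those of Nnat, Plagl1 and Grb10, and was in neither the Mkrn3 nor the Peg12 window. For Mest and Grb10 a further window, at chr6:30733256-30733555 and chr11:12027922-12028221, had no match, and another Mest window, which overlaps that shown, had the same 2. The Mkrn3 and Peg12 windows held 15 and 12 CG pairs, against 17 for Nnat, 17 for Mest, 26 for Plagl1 and 45 for Grb10. RefSeq had 52 windows for 38 of the 48 named genes. The hexamer was in 12 of these (23.1%), with a median of 17 CG pairs, and in 3813 of all 32851 windows (11.6%), with a median of 7. A match is a description of letters and not a binding site, and of the Snrpn cluster Ndn and Magel2 had no match and Snrpn had 1 in 1 of its 4 windows.

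Peg13 was higher in both Pali mutants at every stage. It is a paternally expressed noncoding RNA (chr15:72805600-72810324, minus strand, GRCm38) that lies within Trappc9, a gene for a vesicle tethering subunit, on the same strand. Its promoter is an imprinting control region of the domain. At day 0 it had 100.4 and 73.7 normalised counts in the Pali1 knockout and 99.4 and 110.4 in the double knockout, against 11.0 and 26.7 in Pali wild type. At day 4 the values were 61.0 and 76.2 in the Pali1 knockout and 129.8 and 167 in the double knockout, against 13.6 and 11.0 in Pali wild type. At day 8 they were 92.4 and 134 in the Pali1 knockout and 188 and 186 in the double knockout, against 11.0 and 15.6 in Pali wild type. No knockout library overlapped a Pali wild type library on any day, and the share of all tested genes with this pattern was not counted.

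On the log2(value + 4) scale the Pali1 knockout exceeded Pali wild type by 2.07 (SE 0.475, adjusted p = 0.0171) at day 0, 2.15 (SE 0.475, adjusted p = 0.0186) at day 4 and 2.75 (SE 0.475, adjusted p = 0.000872) at day 8 (limma, Benjamini-Hochberg adjusted over 15712 genes). A gene with an adjusted p under 0.05 is named as called, and its call as lost where a fit without 1 library, or with another setting, gave a higher value. The double knockout exceeded it by 2.34 (SE 0.475, adjusted p = 0.00853), 3.22 (SE 0.475, adjusted p = 0.00196) and 3.48 (SE 0.475, adjusted p = 0.000527). Both mutants were set against the same wild type libraries. The double knockout did not pass the test against the Pali1 knockout, with differences of 0.27 (SE 0.475, adjusted p = 0.893), 1.07 (SE 0.475, adjusted p = 0.36) and 0.73 (SE 0.475, adjusted p = 0.593). The day 8 calls of both mutants and the day 4 call of the double knockout held without any 1 library. At day 0 the Pali1 knockout call was lost without either replicate of the Pali1 knockout or replicate 1 of Pali wild type (adjusted p = 0.0529 to 0.168). That of the double knockout was lost without either replicate of the double knockout or replicate 1 of Pali wild type (adjusted p = 0.0522 to 0.124). At day 4 the Pali1 knockout call was lost without any 1 of the 4 libraries compared (adjusted p = 0.0836 to 0.152).

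Trappc9, which surrounds Peg13, was not called in any mutant. It had 767 and 1074 normalised counts in the Pali1 knockout and 746 and 825 in the double knockout at day 8, against 753 and 523 in Pali wild type. Its differences over the 6 Pali comparisons ran from -0.42 to 0.53 on the log2 scale. Kcnk9, a potassium channel gene of the same domain, was at or near 0 throughout. In the gene trap Peg13 had 11.3 and 8.45 at day 0, against 7.55 and 12.4 in C129, and 17.5 and 22.1 at day 8, against 16.1 and 55.8 in C129. No gene trap comparison was called (differences of 0.01, 0.18 and -0.55).

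**Figure D2:**
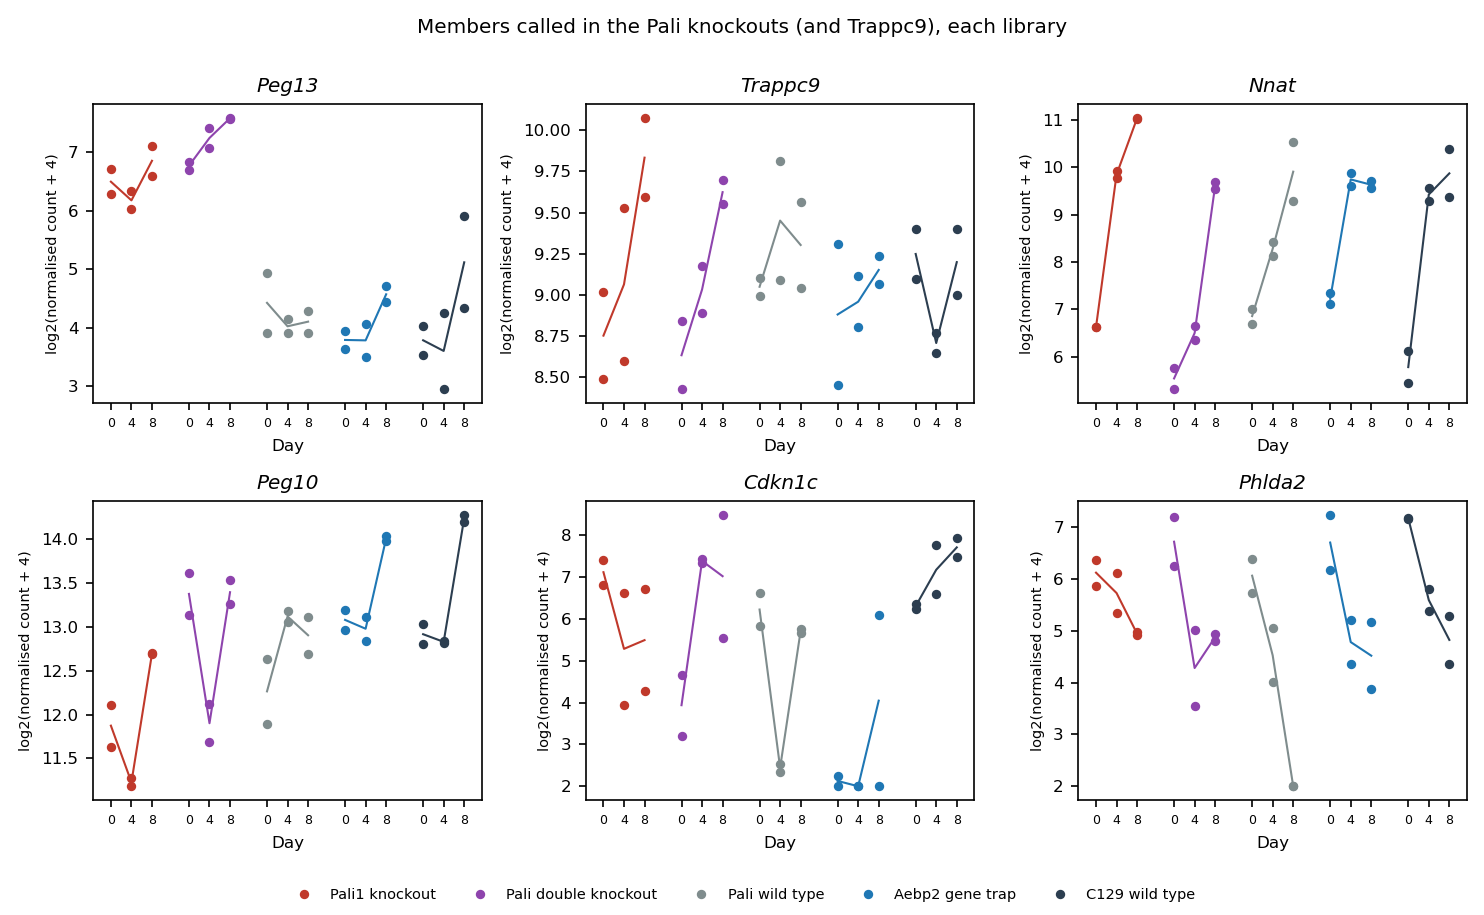
Each panel gives 1 gene, with log2(normalised count + 4) on the vertical axis and day 0, 4 and 8 within each line on the horizontal axis; points are single libraries and lines join the means of 2. Peg13 is high in both Pali knockouts with no overlap with the other lines, while Trappc9 overlaps between lines.

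Several paternally expressed genes of the Snrpn-Ube3a cluster on chromosome 7, the region of Prader-Willi syndrome in humans, were also higher in the Pali mutants than in Pali wild type. Mkrn3, a makorin RING finger gene known as a brake on puberty, was called in 5 of 6 comparisons. It had 269 and 272 normalised counts in the Pali1 knockout at day 0, against 141 and 163 in Pali wild type (log2 difference 0.81, SE 0.223, adjusted p = 0.0441). At day 4 it had 326 and 345 in the Pali1 knockout and 334 and 358 in the double knockout, against 129.6 and 135 in Pali wild type. The differences were 1.32 (SE 0.223, adjusted p = 0.00296) and 1.36 (SE 0.223, adjusted p = 0.00343). At day 8 it had 446 and 573 in the Pali1 knockout and 356 and 315 in the double knockout, against 162 and 151 in Pali wild type. The differences were 1.67 (SE 0.223, adjusted p = 0.000112) and 1.08 (SE 0.223, adjusted p = 0.00806). Every knockout library lay above every Pali wild type library of its day, a pattern whose share of all tested genes was not counted. The double knockout at day 0, with 179 and 224, was not called (difference 0.39, SE 0.223, adjusted p = 0.471). The Pali1 knockout call at day 0 was lost without any 1 of the 4 libraries compared (adjusted p = 0.115 to 0.212). The call was also lost with no filter on low values (adjusted p = 0.0528) and with TMM rescaling (adjusted p = 0.053). The double knockout call at day 8 was lost without replicate 1 of the double knockout or replicate 2 of Pali wild type (adjusted p = 0.0695 to 0.0791), and the other 3 held.

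Peg12, an intronless relative of the Frat genes, rose in 3 of the 6 comparisons. In the Pali1 knockout at day 8 it had 2090 and 2536 normalised counts and in the double knockout 1296 and 1032, against 509.7 and 306 in Pali wild type. The log2 differences were 2.53 (SE 0.418, adjusted p = 0.000642) and 1.54 (SE 0.418, adjusted p = 0.0333). The double knockout was already higher at day 4, with 212 and 580.5 against 63.4 and 69.2 in Pali wild type (difference 2.34, SE 0.418, adjusted p = 0.00764). The Pali1 knockout at day 4, with 95.8 and 137, was not called (difference 0.75, SE 0.418, adjusted p = 0.448). Its distance from the double knockout on that day did not pass the test either (1.59, SE 0.418, adjusted p = 0.0752). The double knockout call at day 4 was lost without replicate 2 of the double knockout or replicate 1 of Pali wild type (adjusted p = 0.0707 to 0.0975). That at day 8 was lost without either replicate of the double knockout or replicate 2 of Pali wild type (adjusted p = 0.0938 to 0.26) or in a fit without the lines of the other wild type (adjusted p = 0.0537).

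Ndn, the necdin gene of the MAGE family, rose at day 8 in both mutants, to 1483 and 1826 normalised counts in the Pali1 knockout and 1308 and 1240.4 in the double knockout, against 512 and 443 in Pali wild type. The log2 differences were 1.78 (SE 0.375, adjusted p = 0.004) and 1.41 (SE 0.375, adjusted p = 0.0307). The Pali1 knockout call was lost without replicate 2 of the Pali1 knockout (adjusted p = 0.051). The double knockout call was lost without any 1 of the 4 libraries compared (adjusted p = 0.0807 to 0.178). Magel2, another MAGE family gene, was called at day 0 in the double knockout, with 56.8 and 94.7 against 18.6 and 25.6 in Pali wild type (difference 1.58, SE 0.424, adjusted p = 0.0458). That call was lost without any 1 of the 4 libraries compared (adjusted p = 0.0737 to 0.3). The call was also lost with an offset of 1 (adjusted p = 0.054) and with no filter on low values (adjusted p = 0.0573). Snrpn, which codes for a splicing protein, was not called, with 5602 and 4217 in the Pali1 knockout and 4102 and 5338 in the double knockout at day 8, against 3963 and 5727 in Pali wild type. Ube3a, the ubiquitin ligase gene that is imprinted in neurons, was not called either. The other wild type line, C129, also exceeded Pali wild type in Mkrn3, Peg12 and Ndn at day 8. Its means were 615, 1570 and 1420, against 156, 408 and 478 in Pali wild type, and each difference was called, as given below. At day 4 Mkrn3 was called higher in C129 (limma, 0.79, SE 0.223, adjusted p = 0.0213), a call lost in 4 other fits. Peg12 and Ndn were not called at day 4, and none of these genes at day 0. Mkrn3, Peg12, Ndn and Magel2 had positive differences in all 6 Pali comparisons, which share their wild type libraries. So had Peg13, Calcr, Dcn and Inpp5f outside the cluster, and the share of all tested genes with this pattern was not counted. In bulk samples fewer or more cells of one type and less or more RNA per cell cannot be told apart, here and below.

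**Figure D3:**
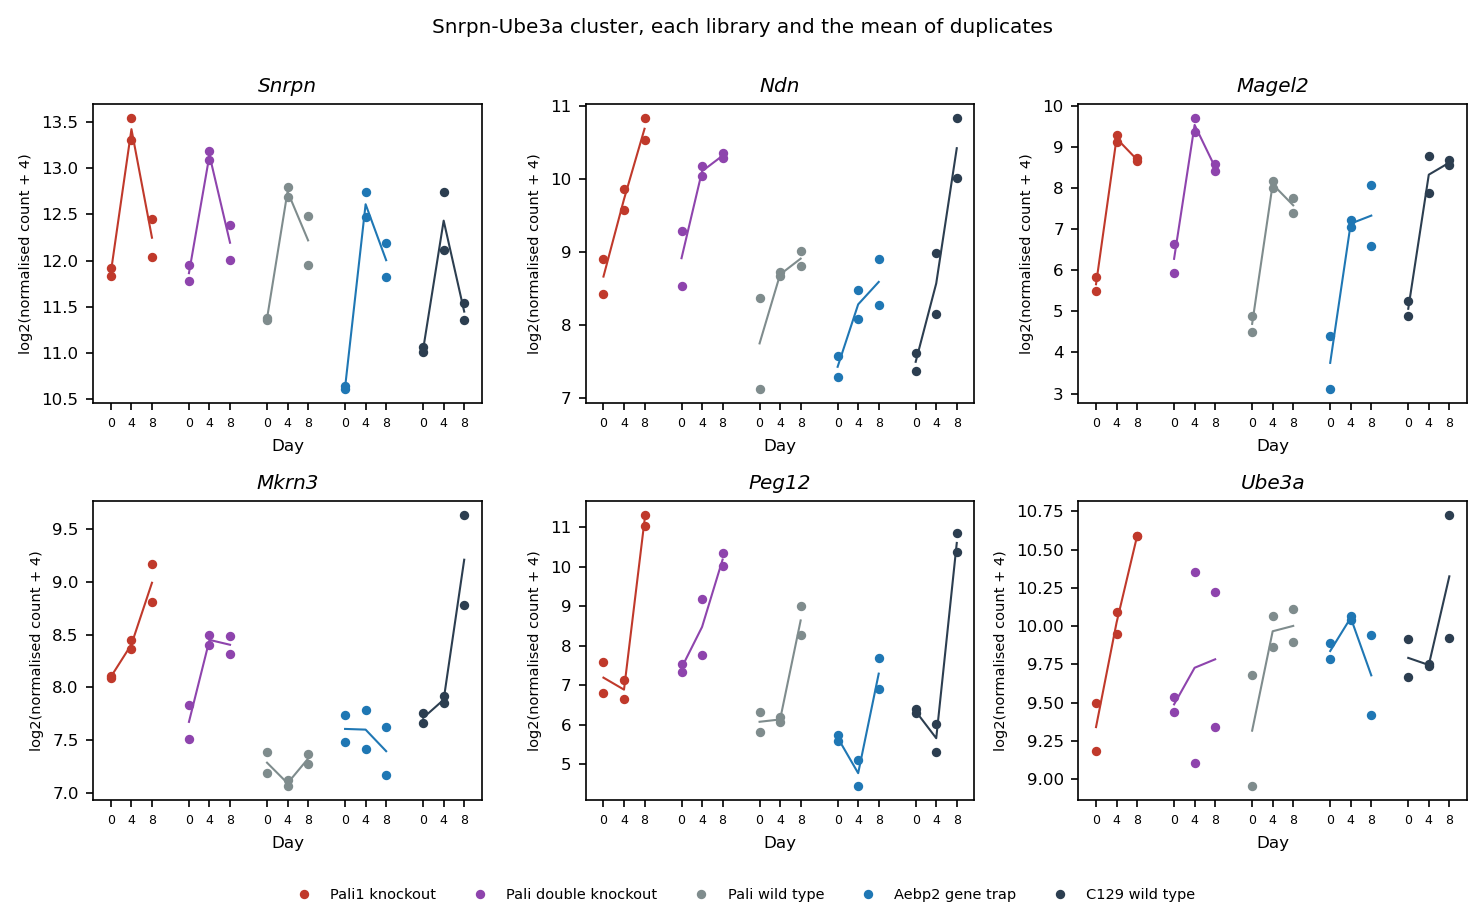
Each panel gives 1 gene of the Snrpn-Ube3a cluster, with log2(normalised count + 4) on the vertical axis and day 0, 4 and 8 within each line on the horizontal axis; points are single libraries and lines join the means of 2. At day 8 Ndn, Mkrn3 and Peg12 lie higher in both Pali knockouts than in Pali wild type and lower in the gene trap than in C129, while Snrpn shows no such order.

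Nnat separated the 2 Pali mutants. It codes for neuronatin, a small membrane protein of neural and endocrine cells, and lies in an intron of Blcap on the opposite strand. At day 4 Nnat had 77.1 and 96.6 normalised counts in the double knockout, 972 and 869 in the Pali1 knockout and 276 and 341 in Pali wild type. The double knockout lay below Pali wild type (-1.78, SE 0.340, adjusted p = 0.0121) and the Pali1 knockout above it (1.57, SE 0.340, adjusted p = 0.0165). Their own difference was -3.35 (SE 0.340, adjusted p = 4.19e-05), and it held without any 1 library. At day 8 the values were 739 and 826 in the double knockout, 2115 and 2095 in the Pali1 knockout and 1479 and 621 in Pali wild type. The double knockout was again below the Pali1 knockout (-1.43, SE 0.340, adjusted p = 0.0453). The Pali1 knockout was above Pali wild type at day 8 (1.13, SE 0.340, adjusted p = 0.0341). At day 0 the double knockout had 35.6 and 50.5, against 99.7 and 125 in Pali wild type (-1.32, SE 0.340, adjusted p = 0.0377).

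Of these Nnat calls, that of the double knockout against Pali wild type was lost at day 0 without any 1 of the 4 libraries compared (adjusted p = 0.0671 to 0.277). The day 4 call was lost without replicate 1 of the double knockout or either replicate of Pali wild type (adjusted p = 0.0536 to 0.0826). That of the Pali1 knockout was lost at day 4 without either replicate of the Pali1 knockout or replicate 1 of Pali wild type (adjusted p = 0.0942 to 0.146). The day 8 call was lost without either replicate of the Pali1 knockout or replicate 2 of Pali wild type (adjusted p = 0.119 to 0.43). The day 8 difference between the 2 mutants was lost without any 1 of the 4 libraries compared (adjusted p = 0.164 to 0.238), or with an offset of 1 (adjusted p = 0.0564) and in a fit without the lines of the other wild type (adjusted p = 0.0558). Blcap was called in neither mutant.

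Peg10, a gene derived from a retrotransposon and needed in placenta, fell at day 4 in both mutants, to 2322 and 2474 normalised counts in the Pali1 knockout and 3281 and 4448 in the double knockout, against 9246 and 8516 in Pali wild type. The log2 differences were -1.89 (SE 0.222, adjusted p = 8.81e-05) and -1.21 (SE 0.222, adjusted p = 0.00935). All 4 knockout libraries lay below both Pali wild type libraries, and how many of all tested genes did so was not counted. At day 0 it rose in the double knockout, with 8973 and 12519, against 3806 and 6339 in Pali wild type (1.11, SE 0.222, adjusted p = 0.00778). The double knockout also exceeded the Pali1 knockout, which had 3177 and 4420.5, by 1.50 (SE 0.222, adjusted p = 0.00147). Against Pali wild type the double knockout call was lost at day 0 without replicate 2 of the double knockout or replicate 1 of Pali wild type (adjusted p = 0.109 to 0.134). At day 4 the call was lost without replicate 1 of the double knockout or replicate 1 of Pali wild type (adjusted p = 0.0848 to 0.0885). Sgce, its neighbour on the opposite strand, was not called. Mest, a gene of the alpha/beta hydrolase family named for its expression in mesoderm, differed between the 2 mutants at day 4, with 3167 and 6787 in the double knockout, against 604 and 857 in the Pali1 knockout (2.68, SE 0.637, adjusted p = 0.0454). That call was lost without any 1 of the 4 libraries compared (adjusted p = 0.0581 to 0.33), or with no filter on low values (adjusted p = 0.0565).

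In the Kcnq1 cluster on chromosome 7 both mutants differed from Pali wild type in Phlda2, a maternally expressed gene that restrains placental growth. At day 8 Phlda2 had 26.1 and 27.4 normalised counts in the Pali1 knockout and 24.0 and 26.8 in the double knockout, and both libraries of Pali wild type listed it at 0 (adjusted p = 0.00186 and 0.00546). C129 had a mean of 25.8 on that day, near both knockouts, and was called against Pali wild type as well (limma, adjusted p = 0.00175). Cdkn1c, which codes for the cell cycle inhibitor p57, had 158 and 168 in the double knockout at day 4, against 1.80 and 1.10 in Pali wild type (difference 4.94, SE 1.134, adjusted p = 0.031). Its call was lost without any 1 of the 4 libraries compared (adjusted p = 0.111 to 0.152). C129 had a mean of 152 for Cdkn1c at day 4, and it too was called above Pali wild type (limma, 4.73, SE 1.134, adjusted p = 0.00838). At day 8 the double knockout had 42.9 and 354 and Pali wild type 50.3 and 46.8. Tssc4 was higher in the Pali1 knockout at day 8, with 627 and 636, against 445 and 436 in Pali wild type (0.52, SE 0.166, adjusted p = 0.0465). The call was lost without any 1 of the 4 libraries compared (adjusted p = 0.13 to 0.187). The call was also lost with no filter on low values (adjusted p = 0.0574) and with TMM rescaling (adjusted p = 0.0644) and in a fit without the lines of the other wild type (adjusted p = 0.0651). Kcnq1ot1, the long antisense RNA that silences the cluster on its own chromosome, was not called in either Pali mutant.

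Gnas, which codes for the stimulatory G protein subunit and further transcripts, changed sides in the Pali1 knockout. At day 0 it had 1396 and 1249 normalised counts in the Pali1 knockout, against 1870.1 and 2301 in Pali wild type (-0.65, SE 0.174, adjusted p = 0.0394). At day 8 it had 6366 and 6988 in the Pali1 knockout, against 3922 and 4557 in Pali wild type (0.66, SE 0.174, adjusted p = 0.0167). The day 0 call was lost without either replicate of the Pali1 knockout or replicate 2 of Pali wild type (adjusted p = 0.108 to 0.293). The day 8 call was lost without replicate 2 of the Pali1 knockout or replicate 1 of Pali wild type (adjusted p = 0.126 to 0.132). The 2 wild type lines differed in Gnas in the same directions at day 0 and day 8. C129 lay below Pali wild type at day 0 (limma, -0.90, SE 0.174, adjusted p = 0.00112) and day 4 (-0.84, SE 0.174, adjusted p = 0.0028). It lay above at day 8 (0.69, SE 0.174, adjusted p = 0.0103), a call lost in 2 other fits. Inpp5f, a phosphoinositide phosphatase gene, was higher in the Pali1 knockout at day 8, with 1052 and 1153, against 753 and 823 in Pali wild type (0.48, SE 0.117, adjusted p = 0.0104). This call was lost without replicate 2 of the Pali1 knockout or replicate 1 of Pali wild type (adjusted p = 0.0852 to 0.112). C129 exceeded Pali wild type in Inpp5f at day 0 (limma, 0.67, SE 0.117, adjusted p = 0.000511) and day 4 (0.49, SE 0.117, adjusted p = 0.00795). It did so at day 8 too (0.83, SE 0.117, adjusted p = 9.94e-05), with a mean of 1400. Of these the day 4 call was lost in 2 other fits. Gatm, which makes the precursor of creatine, rose in the double knockout at day 0, to 71.0 and 94.1, against 15.3 and 35.3 in Pali wild type and 24.8 and 25.9 in the Pali1 knockout. It differed from Pali wild type by 1.64 (SE 0.288, adjusted p = 0.00274) and from the Pali1 knockout by 1.55 (SE 0.288, adjusted p = 0.00745). The first call was lost without replicate 1 of Pali wild type (adjusted p = 0.0578). The other was lost without replicate 1 of the Pali1 knockout or replicate 2 of the double knockout (adjusted p = 0.077 to 0.101).

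Counted together, 2 of the 43 tested members rose and 1 fell in the Pali1 knockout at day 0, where 3.04% of all tested genes rose and 1.75% fell. At day 4 it was 3 and 1 (1.07% and 1.60% of all genes), and at day 8 it was 9 and 0 (7.07% and 6.52%). In the double knockout 4 rose and 1 fell at day 0 (2.95% and 0.719% of all genes), 4 and 2 at day 4 (0.987% and 1.08%), and 5 and 0 at day 8 (4.13% and 3.08%). The 9 rises of the Pali1 knockout at day 8 were 20.9% of the members tested. The median log2 difference over the 43 members was 0.47 in the Pali1 knockout and 0.33 in the double knockout at day 8, where the medians of all tested genes were 0.04 and 0.03. Of 21 tested paternally expressed members 6 rose in the Pali1 knockout at day 8, and of 21 maternally expressed ones 2 rose.

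The counts moved with single libraries. For the Pali1 knockout the number called fell at day 0 to 0 without either replicate of the Pali1 knockout and 1 without replicate 1 of Pali wild type. On day 4 the count fell to 2 without either replicate of the Pali1 knockout or replicate 1 of Pali wild type. On day 8 it fell to 4 without replicate 2 of the Pali1 knockout. For the double knockout it fell at day 0 to 2 without either replicate of the double knockout and 0 without replicate 1 of Pali wild type. On day 4 the count fell to 3 without replicate 1 of the double knockout and 2 without replicate 1 of Pali wild type. On day 8 the count fell to 2 without replicate 1 of the double knockout and 3 without replicate 2 of the double knockout or replicate 2 of Pali wild type. Between the double knockout and the Pali1 knockout, 4 members were higher and 1 lower at day 0 (all genes 2.04% and 1.04%), 1 and 1 at day 4 (0.929% and 0.452%), and 0 and 1 at day 8 (0.936% and 0.439%). Beside Peg10, Gatm and the genes above, Plagl1, a zinc finger growth regulator, was lower in the double knockout at day 0 (20.3 and 32.7, against 112 and 134 in the Pali1 knockout, -2.08, SE 0.503, adjusted p = 0.0297). Gnas was higher there (0.67, SE 0.174, adjusted p = 0.0448), and Nap1l5, a retrotransposed gene within Herc3, was higher at low values (11.2 and 15.7, against 1.24 and 0.996 in the Pali1 knockout, adjusted p = 0.0237). The day 0 calls of Plagl1, Gnas and Nap1l5 did not hold throughout. The call of Plagl1 was lost without any 1 of the 4 libraries compared (adjusted p = 0.101 to 0.175). The call of Gnas was lost without either replicate of the Pali1 knockout or replicate 2 of the double knockout (adjusted p = 0.166 to 0.357) or with no filter on low values (adjusted p = 0.055). The call of Nap1l5 was lost without any 1 of the 4 libraries compared (adjusted p = 0.0582 to 0.198). The number called between the mutants fell at day 0 to 1 without replicate 1 of the Pali1 knockout or replicate 2 of the double knockout, 2 without replicate 2 of the Pali1 knockout and 3 without replicate 1 of the double knockout. There were fewer calls at day 4, 1 without either replicate of the Pali1 knockout or replicate 2 of the double knockout, and at day 8, 0 without replicate 2 of the Pali1 knockout or either replicate of the double knockout.

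Markers of other cell types moved in the same comparisons. At day 8, 2 of 7 neuroectoderm markers rose and 0 fell in the Pali1 knockout, and 4 rose and 0 fell in the double knockout. Their sum was 10705 and 12655 normalised counts in the Pali1 knockout and 12666 and 11120 in the double knockout, against 6153 and 4700 in Pali wild type. Map2 was at 0 in 1 library each of the Pali1 knockout and of Pali wild type. Of 6 markers of pluripotent cells 3 fell in the Pali1 knockout and 2 in the double knockout, with sums of 24904 and 20139 in the Pali1 knockout and 26628 and 26414 in the double knockout, against 40713 and 35373 in Pali wild type, none of them at 0. Of 8 tested markers of mesoderm and mesenchyme 2 rose in each mutant, with sums of 2387 and 2838 in the Pali1 knockout and 1267 and 1907 in the double knockout, against 1258 and 1370 in Pali wild type, where Mesp1 was at 0. At day 0 in the double knockout 3 of 4 primed epiblast markers and 4 of 8 markers of mesoderm and mesenchyme rose, and the primed epiblast sums were 15847 and 13441, against 6551 and 6291 in Pali wild type. Of 13 extraembryonic endoderm markers 2 rose and 1 fell in each mutant at day 8. Of 7 tested trophoblast markers 0 rose and 1 fell in the Pali1 knockout and 1 rose and 0 fell in the double knockout. Of 3 tested markers of endothelium and blood 0 were called. The part of these cell types in the changes of imprinted genes was not tested.

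In the Aebp2 gene trap most calls were decreases, and they were most frequent at day 8. There 1 member rose and 13 fell relative to C129 (all genes 9.59% and 10.6%), with a median log2 difference of -0.37 over the members and -0.01 over all tested genes. At day 0, 3 rose and 7 fell (5.23% and 7.78% of all genes), and at day 4, 2 rose and 3 fell (4.05% and 4.96%). The number called fell at day 0 to 4 without replicate 1 of the gene trap, 2 without replicate 2 of the gene trap, 1 without replicate 1 of C129 wild type and 5 without replicate 2 of C129 wild type. At day 4 the number fell to 3 without replicate 1 of the gene trap and 1 without replicate 1 of C129 wild type, and at day 8 to 6 without replicate 1 of the gene trap and 8 without replicate 2 of C129 wild type. A fit limited to the gene trap and C129 libraries called 3 members at day 0, 2 at day 4 and 7 at day 8. It ended, at day 0, the calls described below of Cdkn1c, Grb10, Igf2r, Magel2, Mest, Nap1l5 and Plagl1 (adjusted p = 0.0604 to 0.21). At day 4 it ended those of Kcnq1ot1, Nap1l5 and Zrsr1 (adjusted p = 0.0641 to 0.103), and at day 8 those of Airn, Cd81, Cdkn1c, Inpp5f, Magel2, Slc22a3 and Tssc4 (adjusted p = 0.0506 to 0.172).

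**Figure D4:**
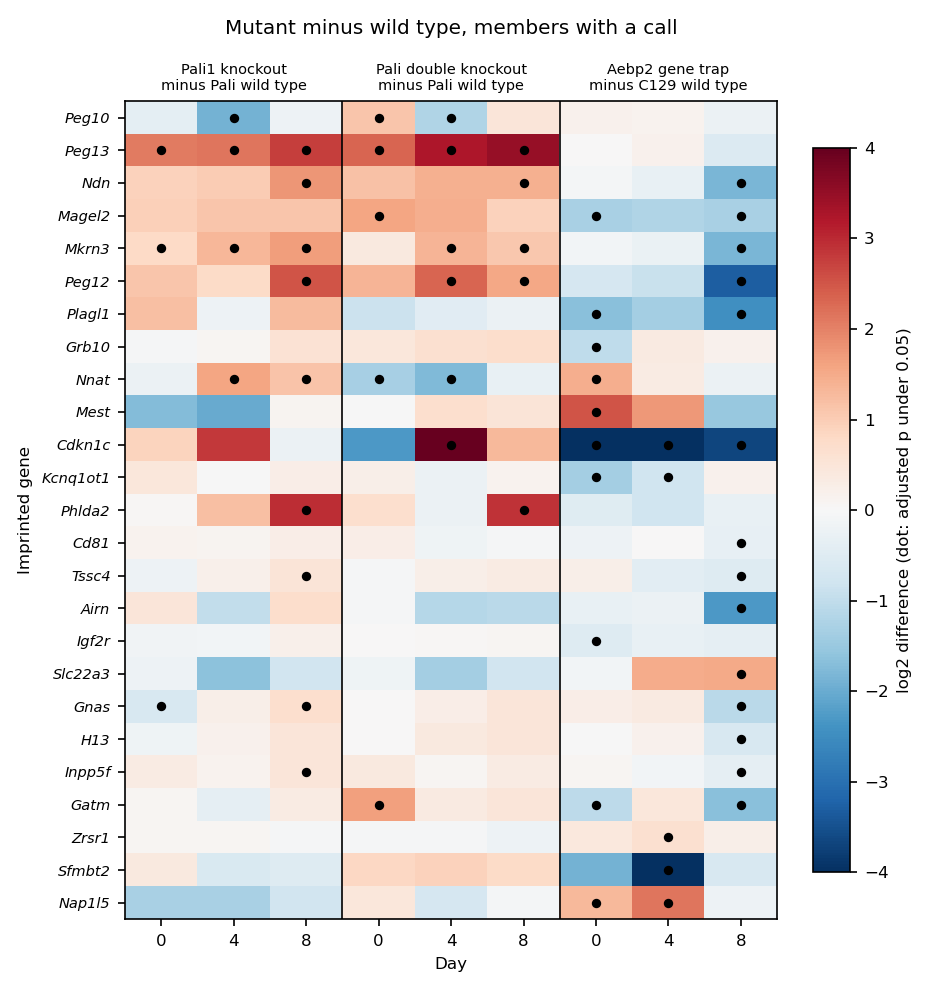
Rows are the 25 imprinted genes called in at least 1 mutant and columns the mutants at day 0, 4 and 8; the colour is the log2 difference, mutant minus wild type, and a dot marks an adjusted p under 0.05. Peg13, Mkrn3 and Peg12 are dotted red in both Pali mutants, and the gene trap at day 8 has 13 dots on the blue side and 1, Slc22a3, on the red side.

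The genes of the Snrpn-Ube3a cluster that were high in the Pali mutants were lower in the gene trap than in C129 at day 8. Peg12 had 115 and 203 normalised counts in the gene trap, against 1309 and 1831 in C129 (log2 difference -3.31, SE 0.418, adjusted p = 2.96e-05). Mkrn3 had 139.6 and 193 in the gene trap, against 437 and 792 in C129 (-1.82, SE 0.223, adjusted p = 2.22e-05). Both calls held without any 1 library. Ndn had 305 and 475 in the gene trap, against 1027 and 1821 in C129 (-1.83, SE 0.375, adjusted p = 0.00193), and this call held too. Magel2 had 92.5 and 263 in the gene trap, against 374 and 402 in C129 (-1.29, SE 0.424, adjusted p = 0.0388). This call was lost without replicate 1 of the gene trap or either replicate of C129 wild type (adjusted p = 0.0986 to 0.501) or with an offset of 1 (adjusted p = 0.0616). At day 0 Magel2 had 17.0 and 4.61 in the gene trap, against 34.0 and 25.4 in C129 (-1.31, SE 0.424, adjusted p = 0.0493). That call was lost without replicate 2 of the gene trap or either replicate of C129 wild type (adjusted p = 0.0868 to 0.454), with no filter on low values (adjusted p = 0.0585) or under TMM rescaling (adjusted p = 0.0523). Pali wild type lay nearer the gene trap than C129 at day 8, with means of 408 for Peg12, 156 for Mkrn3, 478 for Ndn and 188 for Magel2. C129 exceeded Pali wild type in Ndn on that day (limma, 1.51, SE 0.375, adjusted p = 0.00914), a call lost in 2 other fits. The same comparison for Mkrn3 and Peg12 is given below. Snrpn was not called, with 3605 and 4671 in the gene trap, against 2965 and 2622 in C129 at day 8.

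Plagl1 and Gatm were lower in the gene trap than in C129 at day 0 and at day 8. Plagl1 had 92.5 and 159 normalised counts in the gene trap at day 8, against 433 and 1059 in C129 (-2.44, SE 0.503, adjusted p = 0.00196). It had 91.6 and 56.9 in the gene trap at day 0, against 277 and 203 in C129 (-1.66, SE 0.503, adjusted p = 0.0371). Gatm had 52.6 and 57.3 in the gene trap at day 8, against 157 and 218 in C129 (-1.68, SE 0.288, adjusted p = 0.000446). It had 24.9 and 22.3 in the gene trap at day 0, against 60.4 and 47.5 in C129 (-1.06, SE 0.288, adjusted p = 0.0201). The day 8 calls held. At day 0 the call of Plagl1 was lost without any 1 of the 4 libraries compared (adjusted p = 0.0531 to 0.233). The call of Gatm was lost without either replicate of the gene trap or replicate 1 of C129 wild type (adjusted p = 0.0571 to 0.174). Pali wild type had means of 25.3 and 68.3 for Gatm at day 0 and day 8, and of 53.3 and 667 for Plagl1. C129 exceeded it in Gatm by 1.06 (limma, SE 0.288, adjusted p = 0.0127) and 1.42 (SE 0.288, adjusted p = 0.00204) on these days. In Plagl1 it did so at day 0 (2.14, SE 0.503, adjusted p = 0.00512) and was not called at day 8 (0.24, SE 0.503, adjusted p = 0.828). These day 0 calls were each lost in 2 other fits. Gnas at day 8 had 2616 and 3999 in the gene trap, against 6032 and 7667 in C129 (-1.07, SE 0.174, adjusted p = 0.000283), and the call held. Airn, the antisense RNA that silences Igf2r and its neighbours, had 6.62 and 37.2 in the gene trap, against 67.1 and 146 in C129 at day 8 (-2.30, SE 0.561, adjusted p = 0.0066). The call of Airn was lost without replicate 1 of the gene trap or replicate 2 of C129 wild type (adjusted p = 0.0992 to 0.165). Igf2r, the receptor that clears IGF2, was lower at day 0, with 4830.4 and 3713 in the gene trap, against 6774 and 5425 in C129 (-0.52, SE 0.156, adjusted p = 0.0364). Its call was lost without replicate 2 of the gene trap or replicate 1 of C129 wild type (adjusted p = 0.324 to 0.328).

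Cdkn1c was at or near 0 in most gene trap libraries. It had 0 and 0.771 normalised counts in the gene trap at day 0, against 71.5 and 78.4 in C129 (adjusted p = 0.021). At day 4 it was listed at 0 in both gene trap libraries, against 212 and 92.1 in C129 (adjusted p = 0.00851). At day 8 it had 0 and 64.1 in the gene trap, against 241 and 174 in C129 (adjusted p = 0.0288). The Cdkn1c call was lost at day 0 without any 1 of the 4 libraries compared (adjusted p = 0.0835 to 0.106). At day 4 the call was lost without replicate 1 of the gene trap or replicate 1 of C129 wild type (adjusted p = 0.0548 to 0.0997). The day 8 call was lost without replicate 1 of the gene trap or either replicate of C129 wild type (adjusted p = 0.0895 to 0.437). Pali wild type was near 0 for Cdkn1c at day 4 as well, with a mean of 1.45. C129 exceeded it by 4.73 (limma, SE 1.134, adjusted p = 0.00838), a call lost in 1 other fit. Kcnq1ot1 of the same cluster was lower in the gene trap at day 0, with 23558 and 15505, against 48349 and 50456 in C129 (-1.37, SE 0.228, adjusted p = 0.000787), which held. The day 4 values were 16444 and 13122 in the gene trap, against 26750 and 24317 in C129 (-0.80, SE 0.228, adjusted p = 0.0375), a call lost without any 1 of the 4 libraries compared (adjusted p = 0.0673 to 0.205). Pali wild type had 17737 and 17097 at day 0, in the range of the gene trap. Cd81, Tssc4, H13, a signal peptide peptidase gene, and Inpp5f fell at day 8 by 0.34, 0.53, 0.64 and 0.37 on the log2 scale. Cd81 had 3733 and 3889.8 normalised counts in the gene trap, against 5008 and 4618 in C129, and its call was lost without any 1 of the 4 libraries compared (adjusted p = 0.0689 to 0.189). Tssc4 had 367 and 474 in the gene trap, against 564 and 651 in C129, and its call was lost without replicate 1 of the gene trap or replicate 2 of C129 wild type (adjusted p = 0.195 to 0.299). H13 had 360.2 and 372 in the gene trap, against 567 and 581 in C129, and its call was lost without replicate 1 of the gene trap or replicate 2 of C129 wild type (adjusted p = 0.0653 to 0.0772). Inpp5f had 1097 and 1076 in the gene trap, against 1310 and 1497 in C129, and its call was lost without either replicate of the gene trap or replicate 2 of C129 wild type (adjusted p = 0.122 to 0.253). Pali wild type had means of 3540 for Cd81, 440 for Tssc4, 427 for H13 and 788 for Inpp5f on that day. No library of the gene trap overlapped one of C129 for these 4 genes, and the share of all tested genes without overlap was not counted. Under TMM rescaling the calls of Cd81 (adjusted p = 0.0697) and Inpp5f (adjusted p = 0.05 after rounding) were lost as well.

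Sfmbt2, which codes for a Polycomb protein and is imprinted in extraembryonic tissue, had 0 and 15.2 normalised counts in the gene trap at day 4, against 156 and 181 in C129 (-4.30, SE 0.632, adjusted p = 0.000552). This call held without any 1 library. At day 0 it had 86.8 and 58.6 in the gene trap, against 207 and 364 in C129, and was not called (-1.88, SE 0.632, adjusted p = 0.0593). Grb10 at day 0 had 432 and 410.5 in the gene trap, against 862 and 841 in C129 (-1.01, SE 0.323, adjusted p = 0.0481). The call of Grb10 was lost without any 1 of the 4 libraries compared (adjusted p = 0.122 to 0.197). The call was also lost with an offset of 1 (adjusted p = 0.054) and with no filter on low values (adjusted p = 0.0561) and with TMM rescaling (adjusted p = 0.0573) and in a fit without the lines of the other wild type (adjusted p = 0.181).

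The few increases in the gene trap were of other genes. At day 0 Mest had 2649 and 3229 normalised counts in the gene trap, against 309 and 851 in C129 (2.50, SE 0.637, adjusted p = 0.0145). Nnat had 158 and 134 in the gene trap, against 39.4 and 65.3 in C129 (1.45, SE 0.340, adjusted p = 0.00882). C129 had the lowest means of the wild type and gene trap lines in both genes, and Pali wild type had 4002 and 4194 for Mest and 99.7 and 125 for Nnat. The call of Mest was lost without replicate 2 of the gene trap or replicate 1 of C129 wild type (adjusted p = 0.0938 to 0.205). The call of Nnat was lost without replicate 1 of the gene trap or replicate 1 of C129 wild type (adjusted p = 0.0595 to 0.136). Nap1l5 had 40.6 and 42.6 in the gene trap at day 4, against 3.69 and 10.1 in C129 (2.13, SE 0.407, adjusted p = 0.00356). It had 18.1 and 16.9 in the gene trap at day 0, against 3.77 and 5.86 in C129 (1.30, SE 0.407, adjusted p = 0.0434). The day 4 call was lost without replicate 1 of C129 wild type (adjusted p = 0.0742). The day 0 call was lost without any 1 of the 4 libraries compared (adjusted p = 0.0813 to 0.25) or with an offset of 1 (adjusted p = 0.0638). Zrsr1, a splicing factor retrogene inside Commd1, was higher at day 4, with 580.1 and 570.1 in the gene trap, against 368 and 365 in C129 (0.64, SE 0.152, adjusted p = 0.0125). The call of Zrsr1 was lost without replicate 1 of the gene trap or either replicate of C129 wild type (adjusted p = 0.0523 to 0.0846). Slc22a3, an organic cation transporter gene, was higher at day 8 at low values, with 18.3 and 27.8 in the gene trap, against 4.72 and 6.11 in C129 (1.51, SE 0.502, adjusted p = 0.0415). The call of Slc22a3 was lost without any 1 of the 4 libraries compared (adjusted p = 0.0871 to 0.204) or with an offset of 1 (adjusted p = 0.146).

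C129 libraries at day 8 held less of the pluripotency markers than the gene trap, with sums of 40237 and 38666 in the gene trap and 19127 and 13137 in C129. Of 6 markers 5 were called higher in the gene trap, and none was at 0 in these libraries. Of 7 neuroectoderm markers 3 were lower in the gene trap, with sums of 4238 and 5797, against 8173 and 7852 in C129, and Map2 and Neurog2 were each at 0 in 1 gene trap library. Of 13 extraembryonic endoderm markers 3 were lower, with sums of 1978 and 1542 in the gene trap, against 3656 and 5408 in C129. Primed epiblast markers were higher in 3 of 4, with sums of 17444 and 18700 in the gene trap, against 12340 and 6881 in C129. Of 7 tested trophoblast markers 2 were lower, with sums over the whole list of 1158 and 1052 in the gene trap, against 1192 and 773 in C129, and of 3 tested markers of endothelium and blood 1 was higher. Mesoderm and mesenchyme markers, of which 1 of 8 was lower, summed to 2212 and 2468 in the gene trap and 1801 and 4141 in C129. The 2 C129 libraries at day 8 also differed from each other by over 2-fold in 15 of 43 members, 10 of them higher in replicate 2, for example Mest. In the other groups 4 to 11 members differed by that much. The part of these cell types and of this library in the gene trap results was not tested.

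The change of a mutant's effect between day 0 and day 8 was tested as an interaction. In the gene trap it was called for 10 members, 3 towards higher and 7 towards lower values (all genes 8.66% and 6.61%). The lower ones were Mest, at -4.03 (SE 0.902, adjusted p = 0.00602), Peg12 at -2.64 (SE 0.592, adjusted p = 0.006), Ndn at -1.76 (SE 0.531, adjusted p = 0.0321) and Mkrn3 at -1.71 (SE 0.315, adjusted p = 0.00154). So were Nnat at -1.69 (SE 0.481, adjusted p = 0.0245), Gnas at -1.34 (SE 0.245, adjusted p = 0.00148) and Tssc4 at -0.76 (SE 0.234, adjusted p = 0.0357). The higher ones were Kcnq1ot1 at 1.55 (SE 0.323, adjusted p = 0.00391), Snrpn at 0.97 (SE 0.285, adjusted p = 0.0287) and Impact, whose product restrains the kinase GCN2, at 0.67 (SE 0.210, adjusted p = 0.0394). Calls for Mest, Peg12, Mkrn3, Gnas and Kcnq1ot1 held without any 1 library. The others did not. The call of Ndn was lost without replicate 2 of the gene trap at day 0, replicate 1 of the gene trap at day 8, either replicate of C129 wild type at day 0 or replicate 2 of C129 wild type at day 8 (adjusted p = 0.0533 to 0.157). The call of Nnat was lost without replicate 1 of the gene trap at day 0, replicate 1 of the gene trap at day 8, replicate 1 of C129 wild type at day 0 or replicate 2 of C129 wild type at day 8 (adjusted p = 0.0738 to 0.141). The call of Tssc4 was lost without either replicate of the gene trap at day 0, replicate 1 of the gene trap at day 8, either replicate of C129 wild type at day 0 or replicate 2 of C129 wild type at day 8 (adjusted p = 0.0568 to 0.177). The call of Snrpn was lost without either replicate of the gene trap at day 0, replicate 2 of the gene trap at day 8, either replicate of C129 wild type at day 0 or replicate 2 of C129 wild type at day 8 (adjusted p = 0.0639 to 0.113). The call of Impact was lost without either replicate of the gene trap at day 0, either replicate of the gene trap at day 8, replicate 2 of C129 wild type at day 0 or replicate 2 of C129 wild type at day 8 (adjusted p = 0.0675 to 0.186). The number called fell to 6 without either replicate of the gene trap at day 0, replicate 1 of the gene trap at day 8, either replicate of C129 wild type at day 0 or replicate 2 of C129 wild type at day 8. The fit limited to these 2 lines ended the calls of Mest, Ndn, Nnat, Snrpn, Tssc4 and Impact (adjusted p = 0.0673 to 0.102).

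In the Pali1 knockout 2 members changed in effect and both upward, Gnas by 1.31 (SE 0.245, adjusted p = 0.00638) and Phlda2 (adjusted p = 0.0398, with Pali wild type at 0 at day 8). Of all genes 2.70% changed upward and 3.02% downward. The Gnas call held without any 1 library, and the call of Phlda2 was lost without any 1 of the 8 libraries compared (adjusted p = 0.0631 to 0.135). The count fell to 1 without replicate 1 of the Pali1 knockout at day 0, either replicate of the Pali1 knockout at day 8, either replicate of Pali wild type at day 0 or replicate 2 of Pali wild type at day 8. In the double knockout limma called 0 members, where 0.426% of all genes changed upward and 0.694% downward, and 6 members had an unadjusted p under 0.05. Without replicate 2 of Pali wild type at day 0, 1 was called.

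Over the course of differentiation most calls of imprinted genes were rises. From day 0 to day 8, 21 of the 43 tested members rose and 2 fell in the Pali1 knockout (all genes 22.0% and 20.1%), 14 and 2 in the double knockout (16.7% and 14.2%). It was 14 and 2 in Pali wild type (14.0% and 11.7%), 14 and 5 in the gene trap (16.3% and 14.9%), and 21 and 5 in C129 (23.4% and 22.4%). Median log2 changes over the members were 0.89, 0.48, 0.40, 0.72 and 1.12 in that order of lines, and 0.03, 0.03, 0.04, 0.02 and 0.02 over all tested genes. Nnat, Ndn, Magel2, Peg12, Gnas and Inpp5f rose in all 5 lines, and the share of all tested genes that did so was not counted. The Ndn call was lost in the gene trap without either replicate of the gene trap at day 0 or replicate 2 of the gene trap at day 8 (adjusted p = 0.0583 to 0.211), in Pali wild type without replicate 1 of Pali wild type at day 0 or either replicate of Pali wild type at day 8 (adjusted p = 0.0769 to 0.403) and in the double knockout without replicate 1 of the double knockout at day 0 (adjusted p = 0.119). The Peg12 call was lost in the gene trap without replicate 2 of the gene trap at day 8 (adjusted p = 0.0953). The other calls of these 6 genes held without any 1 library. Of the paternally expressed members 14 of 21 rose in C129 and 10 of 21 in Pali wild type, and of the maternally expressed 6 and 3 of 21. The count for the double knockout fell to 10 without either of its day 8 libraries, and that for Pali wild type to 9 without its day 8 replicate 2.

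Markers of cell types moved over the same days. Of 6 pluripotency markers 5 or 6 fell in each line, and their sums were 13137 to 40713 in the 10 libraries of day 8, against 53328 to 83984 in the 10 of day 0. Of 8 tested markers of mesoderm and mesenchyme 4 to 7 rose in each line, with sums over the whole list of 1258 to 4141 at day 8, against 73.4 to 633 at day 0. Of 4 primed epiblast markers 2 to 4 rose, of 7 neuroectoderm markers 2 to 5, of 13 extraembryonic endoderm markers 3 to 6 and of 7 tested trophoblast markers 2 to 4. The part of these cell types in the rises of imprinted genes was not tested.

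The largest rises in C129, beside Peg3, which was listed at 0 at day 0 and had 188 and 1399 at day 8, were of Mest, Peg12, Nnat and Asb4. Mest had 309 and 851 normalised counts at day 0, 262 and 1247 at day 4 and 7198 and 27452 at day 8 (4.77, SE 0.637, adjusted p = 8.43e-06). Peg12 had 74.2 and 80.1 normalised counts at day 0, 35.7 and 60.4 at day 4 and 1309 and 1831 at day 8 (4.26, SE 0.418, adjusted p = 2.38e-07). Nnat had 39.4 and 65.3 normalised counts at day 0, 620.0 and 756 at day 4 and 656 and 1332 at day 8 (4.10, SE 0.340, adjusted p = 3.65e-08). Asb4, which codes for a ubiquitin ligase adaptor, had 5.03 and 0 normalised counts at day 0, 0 and 6.29 at day 4 and 91.6 and 89.0 at day 8 (3.97, SE 1.003, adjusted p = 0.00335). The falls were of Grb10, Phlda2, Kcnq1ot1, Slc22a18 and Impact. Kcnq1ot1 had 48349 and 50456 normalised counts at day 0, 26750 and 24317 at day 4 and 10880 and 11419 at day 8 (-2.15, SE 0.228, adjusted p = 6.54e-07). Grb10 fell by 2.64 (adjusted p = 3.09e-06), Phlda2 by 2.35 (adjusted p = 0.00211), Slc22a18, a transporter gene, by 2.08 (adjusted p = 0.0483) and Impact by 0.64 (adjusted p = 0.00166). The call of Slc22a18 was lost without either replicate of C129 wild type at day 0 or replicate 2 of C129 wild type at day 8 (adjusted p = 0.0956 to 0.377), or with an offset of 1 (adjusted p = 0.0891), with no filter on low values (adjusted p = 0.0578) and with TMM rescaling (adjusted p = 0.0518). The Peg3 call was lost without replicate 2 of C129 wild type at day 8 (adjusted p = 0.106). The other rises and falls named for C129 held without any 1 library.

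In Pali wild type the largest rises were of Sgce (3.79, SE 0.688, adjusted p = 0.000607), Calcr, the calcitonin receptor gene (3.51, SE 1.215, adjusted p = 0.0418), Plagl1 (3.40, SE 0.503, adjusted p = 8.63e-05), Nnat (3.05, SE 0.340, adjusted p = 5.26e-06) and Magel2 (2.88, SE 0.424, adjusted p = 8.18e-05). Plagl1 had 36.2 and 70.5 normalised counts at day 0, 59.8 and 54.9 at day 4 and 1005 and 328 at day 8, so its rise came after day 4. Nnat had 99.7 and 125 normalised counts at day 0, 276 and 341 at day 4 and 1479 and 621 at day 8. The falls were of Impact (-0.44, SE 0.148, adjusted p = 0.0365) and of Phlda2, which had 80.0 and 49.1 normalised counts at day 0, 29.0 and 12.1 at day 4 and 0 and 0 at day 8 (adjusted p = 4.31e-05). Snrpn peaked at day 4, with 2624 and 2664 normalised counts at day 0, 6621 and 7140.1 at day 4 and 3963 and 5727 at day 8 in Pali wild type. In C129 it had 2049 and 2143 normalised counts at day 0, 4444 and 6871 at day 4 and 2965 and 2622 at day 8. The call of Calcr was lost without replicate 1 of Pali wild type at day 0 or either replicate of Pali wild type at day 8 (adjusted p = 0.083 to 0.313), or with an offset of 1 (adjusted p = 0.0613) and with no filter on low values (adjusted p = 0.0522). The call of Impact was lost without any 1 of the 4 libraries compared (adjusted p = 0.0905 to 0.153).

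The 2 wild type lines differed in imprinted genes on all days. C129 exceeded Pali wild type in 10 members and lay below it in 4 at day 0 (all genes 12.0% and 9.06%), in 9 and 4 at day 4 (8.35% and 7.57%), and in 11 and 2 at day 8 (8.86% and 8.49%). The number called fell at day 0 to 7 without replicate 1 of Pali wild type or replicate 1 of C129 wild type. At day 4 it fell to 7 without either replicate of Pali wild type and 6 without replicate 1 of C129 wild type. Grb10 was lower on all 3 days. It had 862 and 841 normalised counts at day 0, 161 and 77.2 at day 4 and 193 and 91.5 at day 8 in C129. Pali wild type had 4252 and 7108 normalised counts at day 0, 5637 and 6636 at day 4 and 6358 and 6271 at day 8. The log2 differences of C129 from Pali wild type were -2.69 (SE 0.323, adjusted p = 1.33e-05), -5.72 (SE 0.323, adjusted p = 7.21e-09) and -5.53 (SE 0.323, adjusted p = 7.28e-09) on these days. The Pali1 knockout had 5530.2 and 5113 normalised counts at day 0, 6649.5 and 6250.5 at day 4 and 10318 and 8753 at day 8. The gene trap had 432 and 410.5 normalised counts at day 0, 174 and 123 at day 4 and 165 and 134 at day 8. The 18 libraries of the 3 Pali lines had at least 4252 and the 12 of the gene trap and C129 lines at most 862. Cell type markers differed between these lines as well. At day 8, 5 of 6 pluripotency markers were lower in C129 and 0 higher, with sums of 19127 and 13137 in C129, against 40713 and 35373 in Pali wild type. Of 13 extraembryonic endoderm markers 2 were higher, and 1 of 4 primed epiblast and 1 of 7 neuroectoderm markers were lower. At day 0 and day 4 1 of 6 pluripotency markers was higher. Their part in the differences between the lines was not tested. The labels do not give the genetic background of the lines beyond their names, and line and genotype cannot be told apart.

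Zrsr1 and Mcts2, a translation factor retrogene inside H13 on the same strand, were higher in the same 2 lines at day 0. Zrsr1 had 532 and 498 normalised counts in C129 at day 0, against 254 and 273 in Pali wild type (0.95, SE 0.152, adjusted p = 0.000214), and 714 and 662 in the gene trap. Mcts2 had 474 and 586 in C129 at day 0, against 281 and 259 in Pali wild type (0.96, SE 0.138, adjusted p = 8.29e-05), and 554 and 663 in the gene trap. Zrsr1 was called at day 8 too (0.77, SE 0.152, adjusted p = 0.00173) but not at day 4, with 368 and 365 in C129, against 307 and 308 in Pali wild type (0.25, SE 0.152, adjusted p = 0.31). Mcts2 was called on all 3 days, and the call at day 4 (0.54, SE 0.138, adjusted p = 0.0116) was lost without replicate 1 of Pali wild type or replicate 2 of C129 wild type (adjusted p = 0.091 to 0.0944). Kcnq1ot1 in C129 exceeded Pali wild type at day 0 by 1.50 (SE 0.228, adjusted p = 0.00015) and at day 4 by 0.85 (SE 0.228, adjusted p = 0.0169). The day 4 call was lost without replicate 2 of Pali wild type or replicate 1 of C129 wild type (adjusted p = 0.12 to 0.225), and day 8 was not called. Mest lay lower in C129 at day 0 (-2.99, SE 0.637, adjusted p = 0.00265) and day 4 (-2.34, SE 0.637, adjusted p = 0.0179). These calls were lost at day 0 without replicate 1 of C129 wild type (adjusted p = 0.0591) and at day 4 without either replicate of Pali wild type or replicate 1 of C129 wild type (adjusted p = 0.0775 to 0.298). Its neighbour Copg2, a coatomer subunit gene that overlaps the end of Mest on the opposite strand, was lower at day 4 too, with 33.3 and 127 in C129, against 255 and 189 in Pali wild type (-1.68, SE 0.481, adjusted p = 0.0239). The call of Copg2 was lost without either replicate of Pali wild type or replicate 1 of C129 wild type (adjusted p = 0.0533 to 0.378). At day 8 Mkrn3 (1.89, SE 0.223, adjusted p = 1.63e-05) and Peg12 (1.96, SE 0.418, adjusted p = 0.00311) were higher in C129. Snrpn was lower (-0.77, SE 0.202, adjusted p = 0.0126), a call lost without replicate 2 of Pali wild type or replicate 2 of C129 wild type (adjusted p = 0.109 to 0.176). Impact, with 6438 and 5533 in C129 at day 4, against 3032 and 2984 in Pali wild type, was higher by 0.99 (SE 0.148, adjusted p = 0.000239).

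**Figure D5:**
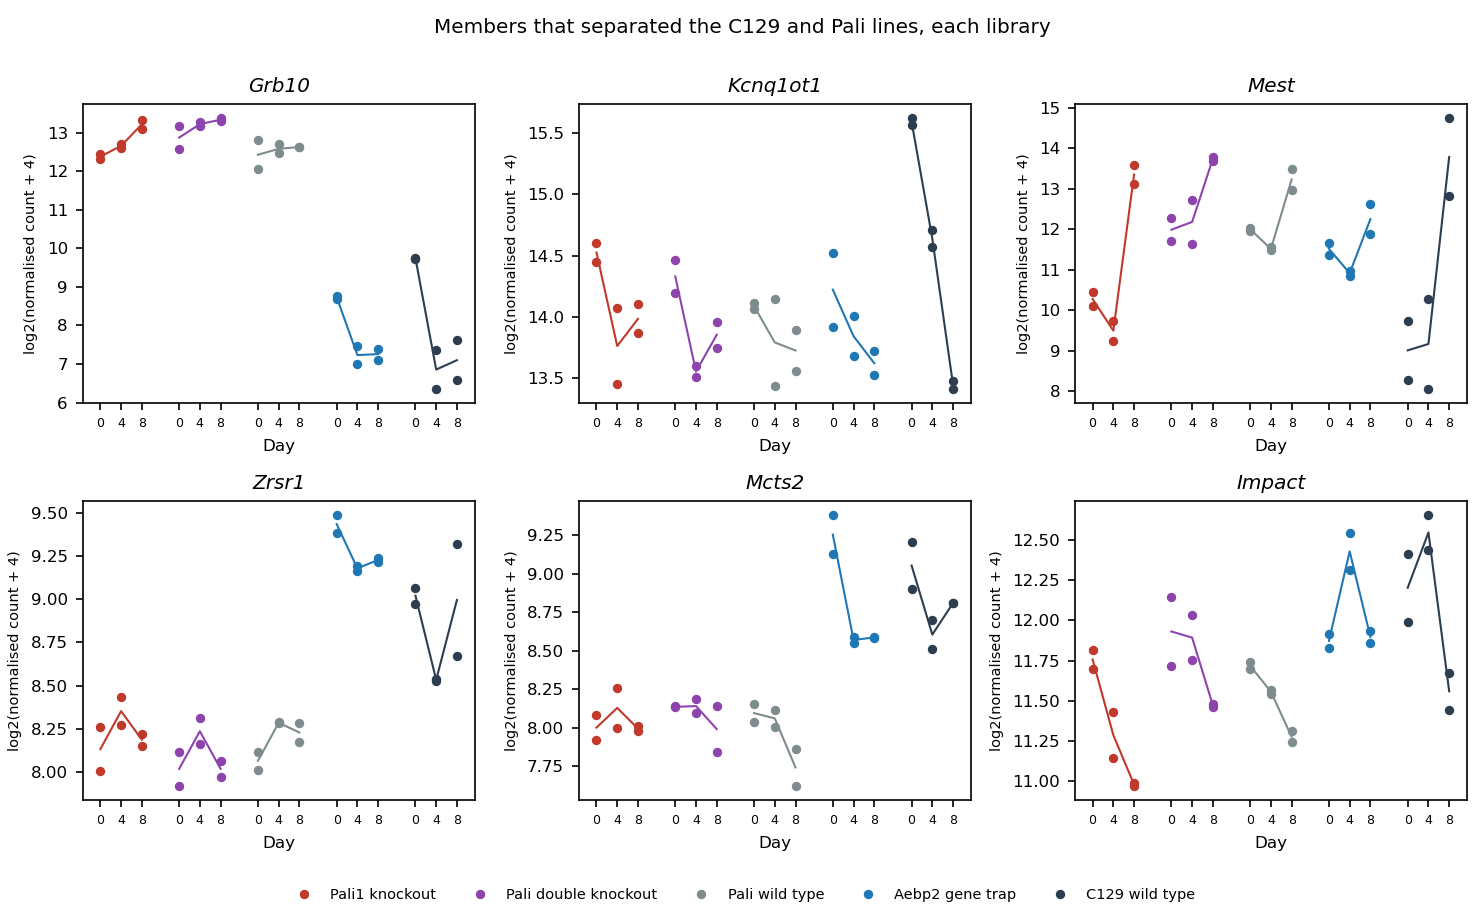
Each panel gives 1 gene, with log2(normalised count + 4) on the vertical axis and day 0, 4 and 8 within each line on the horizontal axis; points are single libraries and lines join the means of 2. Grb10 is low, and Zrsr1 and Mcts2 are high, in the gene trap and C129 lines relative to the 3 Pali lines; Kcnq1ot1 is highest in C129 at day 0.

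Over the 9 comparisons of a mutant with its wild type, 25 of the 43 tested members were called at least once, 18 in none and 11 in both directions. Of all 15712 tested genes 39.5% were called at least once and 13.8% in both directions, against 58.1% and 25.6% of the members. The 18 were Sgce, Asb4, Calcr, Peg3, Usp29, Zim1, Trappc9, Snrpn, Ube3a, Blcap, Copg2, Impact, Slc22a18, Nap1l4, Ascl2, Mcts2, Dcn and Commd1. Among the more abundant were Nap1l4, between 902 and 1533 normalised counts over the 30 libraries, Snrpn, between 1553 and 11965, and Impact, between 2002 and 6438. Others were low, such as Zim1, at most 25.4, and Ascl2, a trophoblast regulator, at most 25.9. Dcn, the decorin gene, lay between 0 and 133, and Commd1 between 1.02 and 405. Peg3 had 3.13 and 0 in the double knockout at day 8, against 343 and 124 in Pali wild type, and did not pass the test (-5.31, SE 2.101, adjusted p = 0.148). For these genes a change smaller than the spread of the duplicates was not detectable. Of the 3 members not tested, Kcnk9, Kcnq1 and Rasgrf1 reached 1.11, 6.79 and 10.7 at most.

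Imprinted genes outside the described set and the factors that keep imprints were read as 2 further lists. Of 25 tested other imprinted genes 5 rose and 1 fell in the Pali1 knockout at day 8 (all genes 7.07% and 6.52%). In the double knockout 1 rose and 1 fell on that day (4.13% and 3.08%). The medians were 0.17 and -0.01 (all genes 0.04 and 0.03). In the gene trap 0 rose and 5 fell at day 0 (all genes 5.23% and 7.78%), and 5 rose and 4 fell at day 8 (9.59% and 10.6%). H19 was called in the Pali1 knockout at day 0, with 128 and 167 normalised counts, against 14.3 and 6.42 in Pali wild type (3.44, SE 0.503, adjusted p = 0.000695). It was lower in the gene trap on all 3 days, at day 8 with 847 and 941, against 7868 and 17194 in C129 (-3.70, SE 0.503, adjusted p = 6.27e-05). Of 23 imprint maintenance factors 1 rose and 1 fell in the Pali1 knockout at day 0 (all genes 3.04% and 1.75%), and 2 rose and 0 fell in the double knockout (2.95% and 0.719%). In the gene trap 0 rose and 3 fell at day 0 (all genes 5.23% and 7.78%), and 5 rose and 1 fell at day 8 (9.59% and 10.6%). Dnmt3l, the cofactor of de novo methylation, was higher at day 0 in both, with 5094 and 5299 in the Pali1 knockout and 5844 and 4786 in the double knockout, against 1762 and 1774 in Pali wild type (1.55, adjusted p = 0.0012, and 1.58, adjusted p = 0.00106). Zfp57 was lower in the Pali1 knockout at day 0, with 3142 and 3853, against 4722 and 5548 in Pali wild type (-0.56, adjusted p = 0.0413). It was higher in the gene trap at day 8, with 1428 and 1298, against 451 and 444 in C129 (1.60, adjusted p = 1.76e-06). Whether the calls of these 2 lists, or those of the cell type markers, held in the other fits was not examined. The part of these factors in the changes of the members was not tested.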

How the data were processed

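RNA from 30 libraries (15 groups of line and day, 2 libraries each) had been prepared with a stranded ribosomal RNA depletion kit, per the labels' protocols. The authors deposited 1 table of normalised counts for 20563 genes, here treated as a signal. DESeq2, HISAT2 2.0.5, kallisto 0.43.1 and mm10 are named without role or order in the processing notes of the submitters, per the labels, and strand use in counting is not stated there. Only 82.3% to 86.1% of low values were whole multiples of 1 read (tolerance 0.001 steps), so no count test was run. Peg13 lies within Trappc9 and Mcts2 within H13 on the same strand, so how reads were shared between them is uncertain. The tests cover the spread between duplicates only.

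The values were tested with limma 3.58.1 in R 4.3.3 on log2(value + 4), which understates changes of low genes. The 15712 genes that reached 10 in 2 or more libraries entered. The fit had 1 mean per group over all 30 libraries, with a trended and robust prior, and p-values were Benjamini-Hochberg adjusted over all genes within each of 23 comparisons, with a threshold of 0.05. The fit was tested on simulated data. The alternatives were an offset of 1, no filter, a filter at a mean of 50, TMM rescaling, only the lines with the same wild type, the replicate number as a block and leaving out each library, where a lone library is assumed to vary like the other groups.

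Named are all called members of each mutant comparison (up to 10 by lowest adjusted p, the others added after their values were seen) and the 5 largest rises and falls of each wild type line. Members and lists were chosen with earlier results of these data known. Promoter windows are RefSeq's (GRCm38.p6), and gene coordinates are of GRCm38. In 2 double knockout libraries, replicate 1 of day 0 and of day 4, the description names the other culture state than the title and source name, and the title and source name were followed.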

Additional observations from a re-analysis of the deposited data

Results flagged for a closer look

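For 12 results the mutant effect at day 8 differed from that at day 0 by a test of the difference itself (limma interaction, adjusted over 15712 genes). In the gene trap relative to C129 the effect at day 8 was lower than at day 0, with a log2 change of -4.03 for Mest, -2.64 for Peg12, -1.76 for Ndn, -1.71 for Mkrn3, -1.69 for Nnat, -1.34 for Gnas and -0.76 for Tssc4. It was higher by 1.55 for Kcnq1ot1, 0.97 for Snrpn and 0.67 for Impact. In the Pali1 knockout relative to Pali wild type it was higher by 1.31 for Gnas. For Phlda2 the fitted change was 2.88, a value that depends on the offset because both Pali wild type libraries were listed at 0 at day 8. C129 at day 0 was the group farthest from the other groups of that day for Kcnq1ot1 and Mest, and its 2 libraries at day 8 differed for Mest, with 7198 and 27452 normalised counts. The part of this spread in the changes was not tested.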

How the results depend on the processing

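Of 221 single-gene calls over 23 comparisons, 103 kept direction and threshold under every alternative run, 179 under all but the leave-outs, and 104 in every leave-out, and none reversed. The number of members called moved by over 1.5 times as follows, and the cause was not tested. With the lines of the same wild type only, it was 5 in the Pali1 knockout at day 0, and 3, 2 and 7 in the gene trap at days 0, 4 and 8. With the same setting it was 0 between the double and the Pali1 knockout at day 8, and 4 for the change of effect in the Pali1 knockout and 4 in the gene trap. Between the double and the Pali1 knockout it was 1 at day 4 with no filter and 0 at day 8 with an offset of 1. For the change of effect it was 1 in the Pali1 knockout with a filter at a mean of 50 and 1 in the double knockout with an offset of 1. Leaving out 1 library at a time gave, at days 0, 4 and 8, counts of 0 to 4, 2 to 3 and 4 to 8 in the Pali1 knockout, 0 to 6, 2 to 4 and 2 to 4 in the double knockout, and 1 to 5, 1 to 5 and 6 to 11 in the gene trap. Between the double and the Pali1 knockout the counts were 1 to 3, 1 to 2 and 0 to 1, and between the wild type lines 7 to 13, 6 to 9 and 10 to 14. From day 0 to day 8 they were 19 to 22 in the Pali1 knockout, 10 to 11 in the double knockout, 9 to 15 in Pali wild type, 13 to 18 in the gene trap and 20 to 27 in C129. For the change of effect they were 1 to 3, 0 to 1 and 6 to 13 in the Pali1 knockout, the double knockout and the gene trap. Same-numbered libraries deviated together with correlations of -0.062 to 0.109, so the numbers are not shown to pair the samples. With the replicate number as a block the counts at days 0, 4 and 8 were 4, 6 and 9 in the Pali1 knockout, 6, 7 and 5 in the double knockout, and 10, 7 and 18 in the gene trap. For the courses the block gave 24, 15, 19, 20 and 26 in the Pali1 knockout, the double knockout, Pali wild type, the gene trap and C129. It gave 5, 3 and 1 between the Pali mutants, 15, 13 and 14 between the wild type lines, and 3, 0 and 10 for the change of effect. With 2 libraries a group, changes smaller than the spread of the duplicates were not detectable, and members at low values or listed at 0 are the least certain.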
